A study of Homo sapiens with 4 samples.

Results

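The genes of prostaglandin synthesis and response were examined in ES2 cells, an established human ovarian cancer line, after treatment with liquiritigenin (Liq), a plant flavanone used in the study as an agonist of the estrogen receptor ERβ. The 10 genes were taken by symbol from the count tables, out of 23228 listed genes: the phospholipase gene PLA2G4A, the cyclooxygenase genes PTGS1 and PTGS2, the prostaglandin E synthase genes PTGES, PTGES2 and PTGES3, the prostacyclin synthase gene PTGIS, the receptor genes PTGER2 and PTGER4, and HPGD, which encodes a prostaglandin-inactivating dehydrogenase. Total RNA was sequenced from 2 vehicle samples (labelled control) and 2 samples given 100 μM Liq, all taken after 24 h. Every sample was kept in phenol red-free medium with 5% dextran-charcoal treated serum. The labels give the same line for both groups and name no genetic change. Nothing in the labels says that the replicates were separate cultures, so p-values measure only the spread between these samples.

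Prostaglandins are lipid signals made from arachidonic acid, which cytosolic phospholipase A2 releases from membranes. Cyclooxygenases turn it into prostaglandin H, and terminal synthases convert that intermediate into prostaglandin E, prostacyclin and the other family members, which act on G protein-coupled receptors of the same or nearby cells. PTGS1 is the widely expressed cyclooxygenase, whereas PTGS2 (Cox-2) is the inducible one, a classical NF-κB target that is often raised in carcinomas. The comparison of Liq with vehicle asked which steps of this pathway differed at the RNA level.

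The sequences before the starts of the 3 genes that later passed both thresholds are shown first, because they differ in composition and in the motifs they hold. The call on PTGES rested on few reads, 2 and 3 in vehicle and 10 and 14 in Liq, and was not kept in every alternative fit. Each line gives the 250 bases before the RefSeq start, 5′ to 3′ along the gene, from the GRCh38.p14 promoter table. Each was found at exactly 1 place in GRCh37, whose positions are given. Capitals mark matches to the motifs named in the next paragraph.

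PTGS2 (chr1:186649556-186649805, minus strand): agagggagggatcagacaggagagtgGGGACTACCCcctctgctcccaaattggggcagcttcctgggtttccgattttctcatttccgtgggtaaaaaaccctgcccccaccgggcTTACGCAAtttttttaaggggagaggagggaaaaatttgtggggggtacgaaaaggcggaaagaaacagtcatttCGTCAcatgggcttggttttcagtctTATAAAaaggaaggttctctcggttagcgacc
PTGER2 (chr14:52780780-52781029, plus strand): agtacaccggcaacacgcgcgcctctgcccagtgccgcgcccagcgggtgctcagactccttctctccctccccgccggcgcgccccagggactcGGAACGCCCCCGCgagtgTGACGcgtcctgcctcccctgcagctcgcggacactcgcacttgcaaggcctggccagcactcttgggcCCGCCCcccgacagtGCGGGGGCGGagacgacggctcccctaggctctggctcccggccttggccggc
PTGES (chr9:132515322-132515571, minus strand): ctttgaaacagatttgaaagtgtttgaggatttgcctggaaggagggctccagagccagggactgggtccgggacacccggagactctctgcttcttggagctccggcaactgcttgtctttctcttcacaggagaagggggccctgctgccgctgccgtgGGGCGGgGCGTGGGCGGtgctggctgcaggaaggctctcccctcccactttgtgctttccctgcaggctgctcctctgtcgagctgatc

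Both strands were searched, and each share is of 35116 promoters of the same length. In PTGS2 the capitals are, from left to right, a wide κB pattern (GGGNNNNCC, in 48.5% of promoters, present on both strands), a C/EBP pattern (TTNCGNAA, 2.18%), the core of a cAMP response element (CGTCA, 21.2%) and a TATA box (TATAAA, 10.7%). The wide κB and C/EBP patterns were added after the sequence had been seen, and the narrower κB pattern GGNNNTTCC (17.1%) had no match in this window. The TATA box began 32 bases and the CGTCA core 58 bases before the start. In PTGER2 the capitals are a κB pattern overlapping an EGR pattern (GCGNGGGCG, 8.41%), a CGTCA core on the minus strand, a GC box (GGGCGG, 42.6%), and a second EGR pattern overlapping a second GC box. In PTGES they are a GC box and, after it, an EGR pattern overlapping a second GC box. The wide κB pattern also matched in PTGER2 and PTGES but is not capitalised there. GC content was 50.4% before PTGS2, 74.0% before PTGER2 and 61.2% before PTGES, against a median of 58.0% over all promoters. Among the 9 members in the table (PTGIS was the other), a TATA box was also found before PTGS1, on the minus strand, and not in the other windows drawn. GC boxes also matched before PTGS1, PTGES2, PTGES3, PTGER4 and HPGD, none of which was called. The κB pattern also matched before PTGER4, CGTCA before PTGES3 and a later start of HPGD, and the EGR pattern before a later start of PTGES2. The patterns TGACGTCA (1.65%), TGANTCA (AP-1, 6.57%) and AGGTCA (the core of an estrogen response element, 12.1%) had no match before any listed start of these 9 genes. A match is a run of letters and not a shown binding site.

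**Figure D1:**
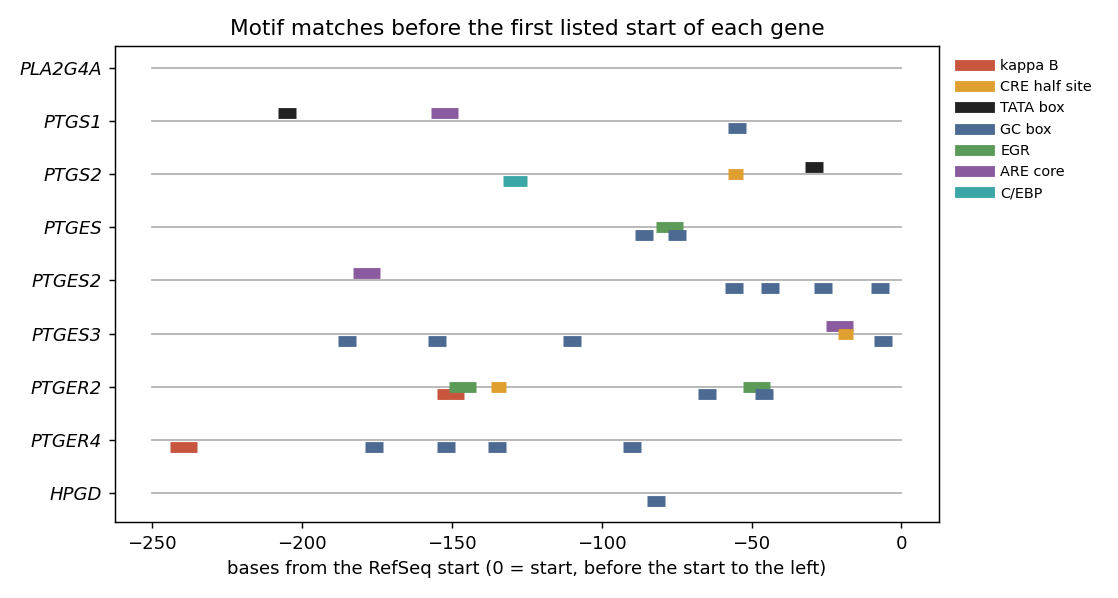
Motif matches on either strand in the 250 bases before the first listed RefSeq start of 9 genes. The horizontal axis is the distance from the start in bases, each grey line is 1 gene and each coloured bar 1 match; the wide κB pattern is not drawn, the CRE colour marks CGTCA and ARE core marks TGACNNNGC, the core of an antioxidant response element (in 10.9% of promoters). PTGS2 carries a TATA box 32 bases before its start and no GC box. PTGER2 and PTGES carry GC boxes (in 42.6% of promoters) and EGR patterns (in 8.41%). The call on PTGES rested on at most 14 reads in any sample and was not kept in every alternative fit. An EGR pattern before a later start of PTGES2, which was not called, is not drawn. GC boxes were also drawn before PTGS1, PTGES2, PTGES3, PTGER4 and HPGD, none of which was called. No drawn motif matched before PLA2G4A.

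Expression is given as CPM, the reads of a gene per 1000000 reads on tested genes after TMM normalization, and changes as log2 fold changes of Liq over vehicle from edgeR's quasi-likelihood fit over 13546 genes. Reads on genes ranged from 34573053 to 48933893 per sample, so that 3 reads corresponded to 0.0598 to 0.0844 CPM. Of the 10 genes, 8 passed the filter on low counts, and HPGD and PTGIS did not. To be called, a gene had to differ by 1.5-fold or more with a Benjamini-Hochberg adjusted p-value under 0.05. By this rule 6.45% of all tested genes changed, 4.29% upward and 2.16% downward. Of the prostaglandin genes PTGS2 fell, PTGER2 rose and 5 were not called. PTGES also met the rule, higher with Liq, but it entered the test only through the Liq samples and its call was lost when any 1 sample was left out. With 2 samples against 2, the smallest p-value of an exact permutation test on 1 gene is 0.3333, and the edgeR test therefore draws on the spread shared across genes. The samples of the groups did not overlap in 7 of the 8 tested members, 4 with lower and 3 with higher Liq values, beside 61.7% of all tested genes (30.2% with lower and 31.5% with higher Liq values), so such a count by itself marks no difference. In bulk RNA, fewer cells that express a gene and less RNA per cell cannot be told apart.

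**Figure D2:**
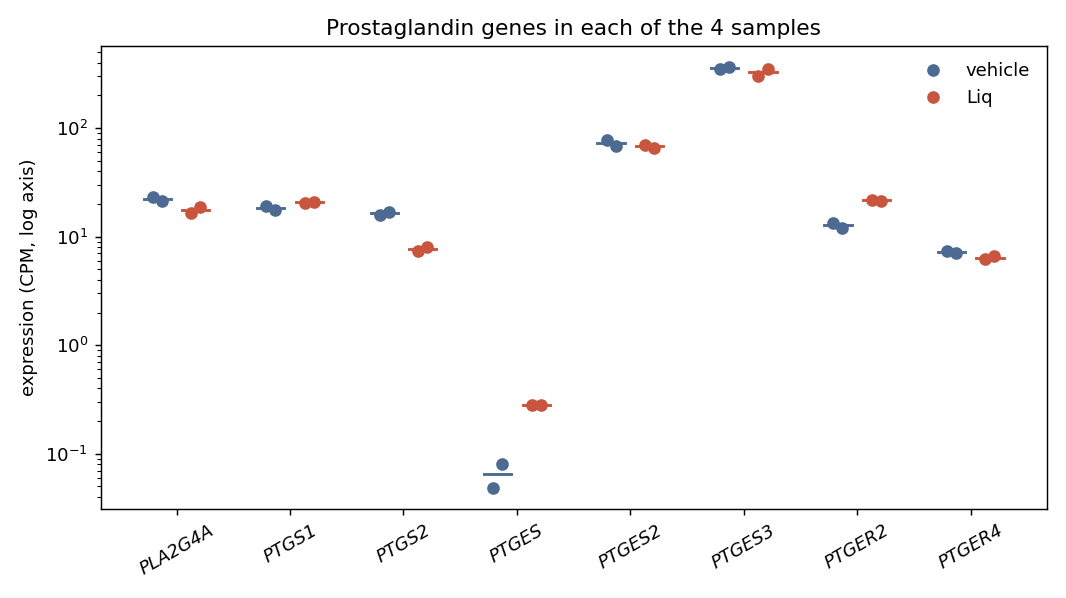
Expression (CPM, log axis) of the 8 tested prostaglandin genes in each sample, with vehicle in blue and Liq in red. Each point is 1 sample and each bar a group mean of 2 samples, and heights are to be compared within a gene since CPM are not corrected for length. The Liq points of PTGS2 lie at 7.37 and 8.01 CPM, under both vehicle points, and those of PTGER2 at 21.9 and 21.4 CPM, above both vehicle points.

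At the first step, PLA2G4A, which encodes the cytosolic phospholipase A2 that releases arachidonic acid, was slightly lower with Liq and was not called. PLA2G4A lies on chromosome 1 from 186798081 to 186958113 (GRCh37), 148.026 kb from PTGS2, its neighbour among these genes. It had 23.0 and 21.2 CPM with vehicle and 16.6 and 18.8 CPM with Liq. Every Liq value was under every vehicle value. The log2 fold change was -0.32 (SE 0.10), which is under 1.5-fold although the adjusted p-value was 0.02144 (edgeR). That p-value rose above 0.05 when control replicate 1 (adjusted p = 0.2714), control replicate 2 (0.06154) or Liq replicate 1 (0.0963) was left out of the edgeR fit, and over all 11 alternatives it ranged from 0.002095 to 0.2714 (edgeR and DESeq2).

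PTGS2 was the member that fell. It lies on the minus strand of chromosome 1 from 186640923 to 186650054 and had 656 and 633 reads in the vehicle samples against 262 and 402 in the Liq samples. In CPM these were 16.0 and 16.9 in vehicle and 7.37 and 8.01 in Liq. The groups did not overlap, and the group means of 16.4 ± 0.7 and 7.69 ± 0.45 CPM (SD, n = 2) differed by far more than the spread between replicates. The log2 fold change was -1.09 (SE 0.11, edgeR adjusted p = 3.104e-08), which is 2.13-fold lower with Liq. Only 0.79% of the tested genes had a lower fold change. In the 11 alternative fits the log2 fold change of PTGS2 stayed between -1.16 and -1.04, with adjusted p-values from 6.986e-20 to 6.087e-07 (edgeR and DESeq2). An antisense lncRNA gene, PACERR, overlaps PTGS2 on the other strand in GENCODE. Whether the counting used strand is not given in the sources used here, so reads of that RNA could not be separated.

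PTGS1, the other cyclooxygenase gene, did not follow PTGS2. PTGS1 (chromosome 9 from 125132809 to 125157982) had 19.3 and 17.5 CPM in vehicle and 20.4 and 20.9 CPM in Liq. Its Liq values were slightly above its vehicle values. The log2 fold change was 0.16 (SE 0.10, edgeR adjusted p = 0.2352), with a 95% interval from -0.04 to 0.37, so that a rise of up to 1.29-fold lies within it. The fold changes of the pair differed by -1.25 on the log2 scale (95% interval -1.56 to -0.95, taking the errors of the 2 genes as independent), a comparison made after the values had been seen.

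Per kb of the canonical GENCODE transcript (4510 bases for PTGS2 and 5020 for PTGS1), the cyclooxygenase genes had overlapping levels in vehicle, PTGS2 at 3.64 ± 0.15 and PTGS1 at 3.67 ± 0.26 CPM per kb (SD, n = 2). In Liq PTGS2 stood at 1.70 ± 0.10 and PTGS1 at 4.11 ± 0.08 CPM per kb. The ratio of PTGS2 to PTGS1 was 0.918 and 1.07 with vehicle, against 0.403 and 0.426 with Liq. Neither Liq ratio reached the lower vehicle ratio.

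**Figure D3:**
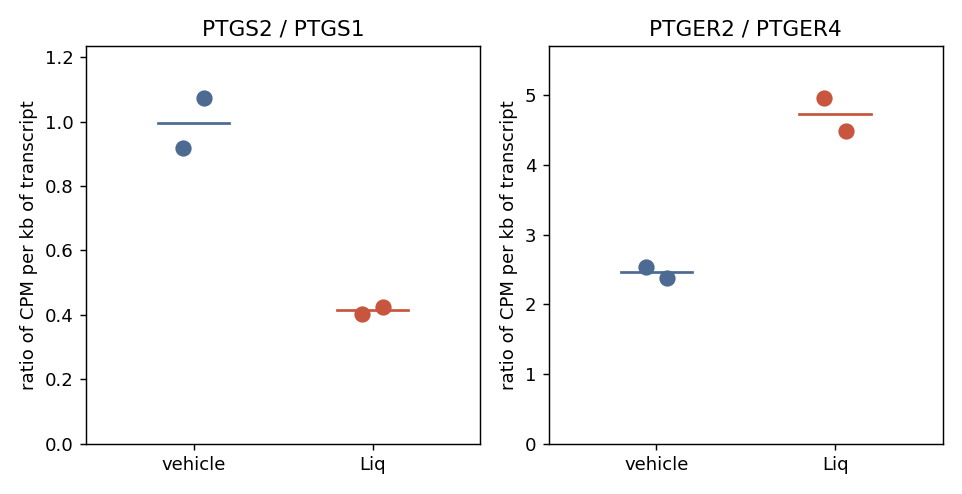
Ratios of expression per kb of transcript for PTGS2 over PTGS1 (left) and PTGER2 over PTGER4 (right); each point is 1 sample, each bar the mean of 2 samples, and both vertical axes start at 0. The cyclooxygenase ratio lies at 0.918 and 1.07 in vehicle and at 0.403 and 0.426 in Liq, and the receptor ratio at 2.53 and 2.38 in vehicle and at 4.97 and 4.49 in Liq.

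Among the terminal synthases, the inducible microsomal prostaglandin E synthase gene PTGES was close to the detection limit. PTGES (chromosome 9 from 132500610 to 132515321, minus strand) had 2 and 3 reads in vehicle and 10 and 14 in Liq. The read counts were higher in every Liq sample, and the gene passed the filter only through that group. From the summed 5 and 24 reads the ratio of Liq to vehicle was 4.40, with a 95% counting interval from 1.64 to 14.8 (Clopper-Pearson, covering counting error only). The log2 fold change was 2.08 with an SE of 0.67 (edgeR adjusted p = 0.02333), a value that depends on the prior count. The call was lost when any 1 of the 4 samples was left out: the adjusted p-values were 0.2656 and 0.1245 without control replicates 1 and 2, and 0.05812 and 0.0762 without Liq replicates 1 and 2 (edgeR). It was also lost with loess offsets along the expression level (edgeR adjusted p = 0.05599), and over 9 alternatives the adjusted p ranged from 0.02294 to 0.2656 (edgeR). Even in Liq the level of PTGES was 0.280 ± 0.002 CPM (SD, n = 2).

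The other E synthase genes were far more abundant and were not called. PTGES2 (chromosome 9 from 130882972 to 130890741), which encodes a membrane-associated synthase, had 78.4 and 67.9 CPM in vehicle and 70.1 and 65.5 CPM in Liq, and its groups overlapped. Its log2 fold change was -0.11 (SE 0.08, edgeR adjusted p = 0.3559, 95% interval -0.28 to 0.06). PTGES3 (chromosome 12 from 57057125 to 57082192), whose product p23 is best known as a cochaperone of HSP90, had 350.0 and 366 CPM in vehicle and 305 and 347 CPM in Liq. Its Liq values were below its vehicle values by a small margin. The log2 fold change was -0.13 (SE 0.07, edgeR adjusted p = 0.1693, 95% interval -0.28 to 0.01). With the replicate number added to the fit as a block it was -0.14 (edgeR adjusted p = 0.02493), still under 1.5-fold. Over the 11 alternatives it ranged from -0.23, without Liq replicate 2, to -0.05, without Liq replicate 1, so its size depended on single Liq samples. GENCODE lists 5 processed pseudogenes of PTGES3, and reads placed equally well on a copy were not counted, so its level is uncertain.

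PTGIS, which encodes prostacyclin synthase (chromosome 20 from 48120411 to 48184674), had 0 reads in all 4 samples. Under the limit of 3 reads, a level of up to 0.0598 to 0.0844 CPM could have been missed, depending on the sample. HPGD, whose product 15-hydroxyprostaglandin dehydrogenase starts the breakdown of prostaglandins (chromosome 4 from 175411326 to 175444305), had 0 and 1 reads in vehicle and 1 and 3 in Liq. A difference in HPGD was not detectable at this depth, and neither gene was tested.

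The receptor genes went apart. PTGER2, which encodes the prostaglandin E receptor EP2 (chromosome 14 from 52781023 to 52795316), had 551 and 451 reads in vehicle and 779 and 1072 in Liq. In CPM these were 13.4 and 12.0 in vehicle and 21.9 and 21.4 in Liq. The groups did not overlap, and the means of 12.7 ± 1.0 and 21.6 ± 0.4 CPM (SD, n = 2) gave a log2 fold change of 0.76 (SE 0.10, edgeR adjusted p = 3.292e-06), or 1.70-fold. The value stayed between 0.69 and 0.84 in the 11 alternative fits, with adjusted p-values from 4.371e-11 to 0.0001468 (edgeR and DESeq2).

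PTGER4, which encodes the receptor EP4 (chromosome 5 from 40680017 to 40693837), had 7.39 and 7.05 CPM in vehicle and 6.16 and 6.63 CPM in Liq. The Liq values lay slightly lower, with a log2 fold change of -0.17 (SE 0.13, edgeR adjusted p = 0.3449, 95% interval -0.43 to 0.09). Both receptors couple to Gs and raise cAMP. The fold changes of PTGER2 and PTGER4 differed by 0.94 on the log2 scale (95% interval 0.60 to 1.27, errors taken as independent), again a comparison made after the values had been seen. Per kb of transcript the ratio of PTGER2 to PTGER4 was 2.53 and 2.38 in vehicle and 4.97 and 4.49 in Liq. GENCODE lists 2 genes named as PTGER4 pseudogenes, and TTC33 overlaps PTGER4 on the other strand.

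**Figure D4:**
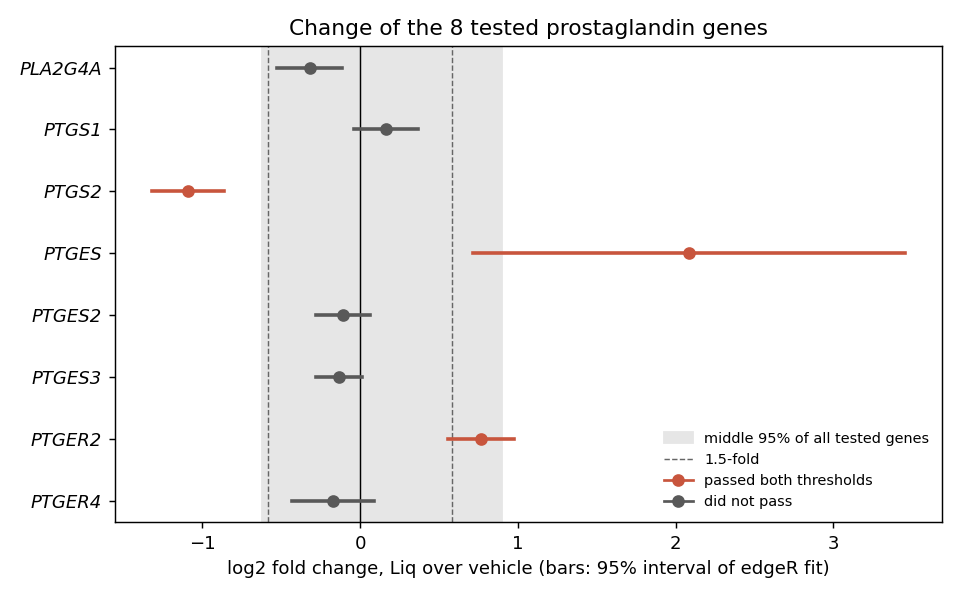
Log2 fold changes of Liq over vehicle for the 8 tested genes with the 95% interval of the edgeR fit. Red marks genes that passed both thresholds, grey those that did not, dashed lines stand at 1.5-fold and the grey band covers the middle 95% of all tested genes. PTGS2 lies left of the band at -1.09, PTGER2 at 0.76 lies inside the band and past the 1.5-fold line, and PTGES at 2.08 has the widest interval, while the other 5 points lie between -0.32 and 0.16.

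Per kb of transcript the order of the levels in vehicle was PTGES3 (189 ± 6 CPM per kb), PTGES2 (45.8 ± 4.7), PLA2G4A (7.68 ± 0.44), PTGER2 (5.18 ± 0.39), PTGS1 (3.67 ± 0.26), PTGS2 (3.64 ± 0.15), PTGER4 (2.11 ± 0.07) and PTGES (0.037 ± 0.013; SD, n = 2). Only PTGS1 and PTGS2 overlapped among these neighbours. In Liq the order of the first 2 was kept, PTGER2 (8.80 ± 0.16) stood above PLA2G4A (6.14 ± 0.54), and PTGS2 (1.70 ± 0.10) stood below PTGER4 (1.86 ± 0.10), with no overlap between neighbours of the 8 genes. The median log2 fold change of the 8 genes was -0.12, and that of all tested genes 0.01.

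The genes whose pattern over the 4 samples was nearest to that of PTGS2 were SGK1, VCAM1, NLRP3, EPHA4 and LETM2, out of 9544 tested genes with at least 10 CPM on average. Their Euclidean distances of centred log2 CPM ranged from 0.090 to 0.125. With 4 samples in 2 groups, this likeness is mostly a like fold change, and their log2 fold changes lay between -1.05 and -0.98.

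The rest of the pathway was described with 8 lists of related genes, in which 56 of 84 genes were tested and 4 were called higher and 4 lower, beside 4.29% of all tested genes called higher and 2.16% called lower. The median log2 fold changes were 0.17 in the synthase, 0.41 in the receptor, 0.22 in the transport and inactivation, 0.06 in the supply and 0.52 in the leukotriene list, and -0.22, -0.17 and -0.12 in the lists of cAMP-induced genes, AU-rich element binding proteins and promoter factors. Among the other prostanoid synthase genes, 1 of 5 tested genes rose and 0 fell. It was AKR1C3, which encodes an aldo-keto reductase that can form prostaglandin F, with 178 and 114 reads in vehicle and 224 and 373 in Liq (log2 fold change 0.90, SE 0.16, edgeR adjusted p = 0.0001225). AKR1C3 has close paralogs, so its count is uncertain. TBXAS1, the thromboxane synthase gene, had a log2 fold change of 0.33 and AKR1B1, another aldo-keto reductase gene, one of 0.17, and neither was called (edgeR adjusted p = 0.06671 and 0.09311). The prostaglandin D synthase genes PTGDS and HPGDS had 0 reads in every sample.

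Of the other prostanoid receptors 1 of 5 tested genes was called higher and 0 lower, beside 4.29% and 2.16% of all tested genes. PTGER3, which encodes the receptor EP3, had 5 and 9 reads in vehicle and 11 and 31 in Liq (log2 fold change 1.43, SE 0.49, edgeR adjusted p = 0.03601). The gene passed the filter on low counts only through the Liq group. The call on PTGER3 was lost without control replicate 1 (adjusted p = 0.357), control replicate 2 (0.06101) or Liq replicate 2 (0.4435), and also with loess offsets (0.1038), all from edgeR, while DESeq2 gave no adjusted p. The range over its alternatives was 0.007478 to 0.4435 (edgeR). PTGFR, the prostaglandin F receptor gene, was higher by less than 1.5-fold, with 33.4 ± 3.2 CPM in Liq against 25.2 ± 1.8 CPM in vehicle (SD, n = 2, log2 fold change 0.41, edgeR adjusted p = 0.00266). The prostacyclin receptor gene PTGIR had 22 and 14 reads in vehicle and 2 and 16 in Liq and was not called (edgeR adjusted p = 0.1061).

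Transport and inactivation genes had 0 calls among 4 tested genes, beside 6.45% of all tested genes. PTGR1 and PTGR2, which encode reductases acting after HPGD in the breakdown of prostaglandins, had log2 fold changes of 0.48 and 0.44, both under 1.5-fold (edgeR adjusted p = 5.227e-05 and 0.001127). PTGR3, listed under its older symbol ZADH2, had one of -0.18 (edgeR adjusted p = 0.1535), and the exporter gene ABCC4 had 3108 and 2856 reads in vehicle and 2523 and 4024 in Liq with a log2 fold change of -0.01.

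Among genes of arachidonate supply, 1 of 10 tested genes rose and 0 fell, beside 4.29% and 2.16% of all tested genes. Of the 21 listed genes 7, all phospholipases A2, had 0 reads in every sample. The gene that rose was PLA2G6, which encodes a calcium-independent phospholipase A2, with 136 and 87 reads in vehicle and 206 and 224 in Liq (log2 fold change 0.84, SE 0.18, edgeR adjusted p = 0.0009049). MGLL, the monoacylglycerol lipase gene, went the other way by less than 1.5-fold, from 314 ± 11 to 235 ± 7 CPM (SD, n = 2, log2 fold change -0.42, edgeR adjusted p = 4.82e-05). LPCAT3, which encodes an enzyme that puts arachidonate back into phospholipids, had a log2 fold change of 0.51 (edgeR adjusted p = 0.0002344).

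Of the leukotriene and lipoxygenase genes, which share the arachidonate substrate, 3 of 13 were tested. Among these 1 rose and 0 fell, beside 4.29% and 2.16% of all tested genes. ALOX5, the 5-lipoxygenase gene, had 0 reads throughout. LTB4R2 had 98 and 145 reads in vehicle and 212 in each Liq sample (log2 fold change 0.69, SE 0.19, edgeR adjusted p = 0.009043), a call that was lost without control replicate 1 (adjusted p = 0.2548) or Liq replicate 1 (0.05823), and with DESeq2 (0.05237), within a range of 3.144e-06 to 0.2548 over its alternatives (edgeR and DESeq2). With loess offsets its log2 fold change was 0.55, under 1.5-fold. LTB4R, the other leukotriene B receptor gene, overlaps LTB4R2 in the annotation and had a log2 fold change of 0.52, under 1.5-fold (edgeR adjusted p = 0.005014). LTA4H, which makes leukotriene B, had one of 0.22 (edgeR adjusted p = 0.0211).

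Genes that cAMP is known to induce were examined because EP2 and EP4 raise cAMP. Of 10 tested genes 0 rose and 2 fell, beside 4.29% and 2.16% of all tested genes. SIK1, a salt-inducible kinase gene, fell from 25.8 ± 0.7 to 16.5 ± 0.3 CPM (SD, n = 2, log2 fold change -0.64, SE 0.10, edgeR adjusted p = 1.735e-05). NR4A3, an orphan nuclear receptor gene, had 34 and 27 reads in vehicle and 13 and 18 in Liq (log2 fold change -1.10, edgeR adjusted p = 0.02207), and its call was lost when any 1 sample was left out (edgeR adjusted p from 0.05302 to 0.2224) and with DESeq2 (0.1921). PDE4D, a cAMP phosphodiesterase gene, had a log2 fold change of -0.45 (edgeR adjusted p = 0.001482), under 1.5-fold.

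Proteins that bind AU-rich elements control the stability of PTGS2 and other short-lived mRNAs. Of 8 tested genes of this kind 0 were called, beside 6.45% of all tested genes. The largest change was in RBM3, with a log2 fold change of -0.35 (edgeR adjusted p = 0.0003455). ZFP36L1 and HNRNPD had log2 fold changes of -0.24 and -0.20 (edgeR adjusted p = 0.02362 and 0.02872). KHSRP had one of -0.18 and TIA1, in the other direction, one of 0.22 (edgeR adjusted p = 0.04337 and 0.03779). At an adjusted p-value under 0.05 and any fold (edgeR), 1 of the 8 was higher and 4 were lower. Beside this stand 12.6% and 11.3% of all tested genes.

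Of 11 genes for factors known to act at the PTGS2 and PTGES promoters 0 rose and 2 fell. Beside this stand 4.29% and 2.16% of all tested genes. EGR1, which is known to bind the PTGES promoter, had 4952 and 5006 reads in vehicle and 1221 and 1575 in Liq, or 127 ± 9 and 32.9 ± 2.1 CPM (SD, n = 2). Its log2 fold change was -1.95 (SE 0.08, edgeR adjusted p = 1.826e-15). FOS had 134 and 133 reads in vehicle and 78 and 88 in Liq (log2 fold change -0.80, SE 0.18, edgeR adjusted p = 0.002073). NFKB1, which encodes the p50 subunit of NF-κB, had a log2 fold change of -0.38, under 1.5-fold (edgeR adjusted p = 0.001281).

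**Figure D5:**
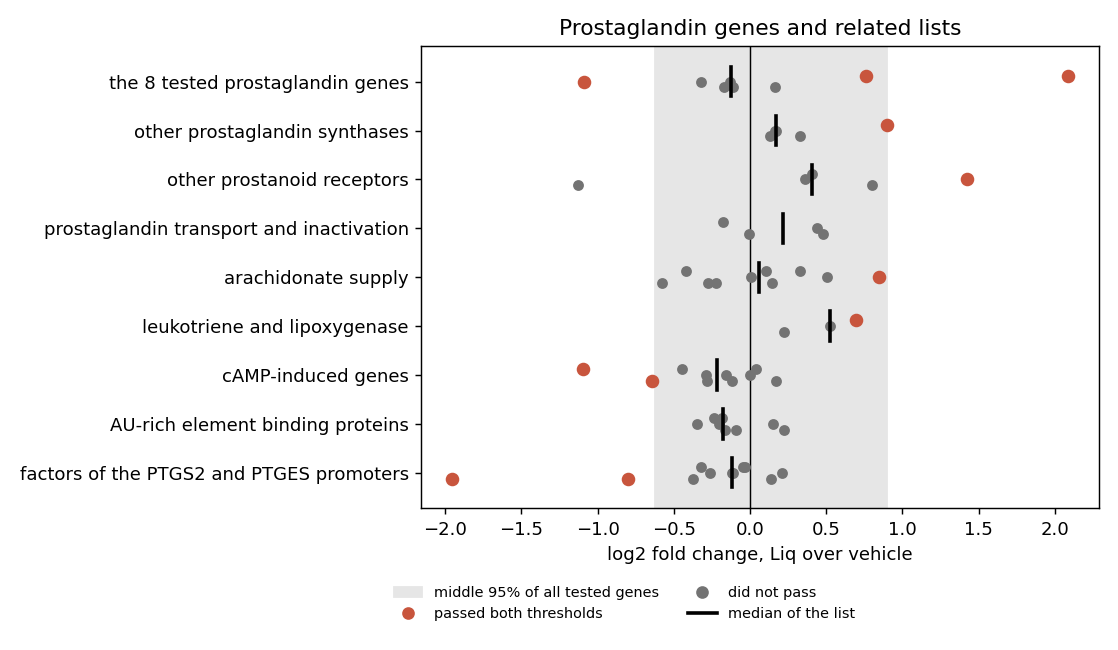
Log2 fold changes of every tested gene in the prostaglandin set and in the 8 related lists. Each point is 1 gene, red where both thresholds were passed, the black bar is the median of the list and the grey band covers the middle 95% of all tested genes. The 1 called gene in each of the synthase, receptor, supply and leukotriene lists lies to the right of 0. The 2 called genes in each of the cAMP and promoter factor lists lie to the left, down to EGR1 at -1.95. The calls on PTGER3, LTB4R2 and NR4A3 were not kept in every alternative fit.

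The receptor through which Liq is held to act had few reads. ESR2 (ERβ) had 4 and 7 reads in vehicle and 5 and 14 in Liq and was not tested, and ESR1 (ERα) had 22 and 17 against 19 and 34 (edgeR adjusted p = 0.5539). The epithelial genes KRT7, KRT8 and KRT18 were well expressed, whereas EPCAM and KRT19 had at most 3 reads in any sample. PAX8 (49 and 46 reads in vehicle, 12 and 29 in Liq) and WT1 (168 and 181, 98 and 140) fell. Of the leukocyte markers, CD3E had 0 reads and PTPRC at most 1, while CSF1R fell with at most 36 reads in any sample. LYZ was also called lower, with at most 23 reads, but passed the filter only through the vehicle group. Of the other markers KDR fell and PDGFRB rose, each with at most 102 reads. The summed level of the 7 leukocyte markers, most of it CD68, was 69.0 to 75.8 CPM in vehicle and 66.9 to 78.3 CPM in Liq. That of the 5 endothelial markers, most of it CDH5, was 53.3 to 55.9 and 46.1 to 49.6 CPM, while PECAM1, VWF and TEK had at most 10 reads in any sample. That of the 7 fibroblast markers, most of it COL1A1, was 1256 to 1338 and 1365 to 1508 CPM. PDGFRA had 92.1 CPM on average in vehicle and 78.0 in Liq, while COL1A2, COL3A1, DCN and LUM had at most 7 reads in any sample. The part of these markers in the results was not tested.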

How the data were processed

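RNA-seq was analysed for 4 samples of ES2 cells, 2 given vehicle and 2 given Liq, with groups and replicate numbers from the sample titles and the dose from the methods of the study. The authors aligned single-end reads to hg19 (GRCh37) with TopHat2 2.0.8b, counted reads per gene symbol with HTSeq and deposited raw counts, not normalized or pooled. Reads placed at more than 1 position (35.6% to 36.2% of those tallied) were not counted. The 5 tally lines stayed out of the tests.

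Counts were fitted in R 4.3.3 with edgeR 4.0.16 (filterByExpr, minimum count 10 and at least 15 in total, TMM, glmQLFit, glmQLFTest, no replicate block) on all genes, and p-values were adjusted by Benjamini-Hochberg over 13546 genes. The SE is the size of the log2 fold change divided by the square root of F. Alternatives, among them DESeq2 1.42.0, are given in the closing section. The fits were tried on simulated counts with the same spread for every gene and changes placed only in genes with more reads. Calls on genes with few reads, such as PTGES and PTGER3, were therefore not covered. The members, the lists and the tests were chosen with earlier results of these data known. All 10 members are named, with the called genes of each list and, where fewer than 3 were called, those of smallest p up to 3. The 5 genes most like PTGS2, ESR1 and ESR2 are also named. Other genes are named as examples chosen after their values were seen. Coordinates and transcript lengths are from GENCODE on GRCh37, and promoter sequences from RefSeq. qPCR, protein and animal experiments were not analysed here, and some marker genes are not reported here.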

Additional observations from a re-analysis of the deposited data

How the results depend on the processing

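PTGS2 and PTGER2 kept their direction and their call in all 11 alternative fits, and PTGS1, PTGES2, PTGES3, PTGER4 and PLA2G4A stayed uncalled in them. Of the 8 tested members, 3 were called as reported, beside 6.45% of all tested genes. With the fold threshold at 2 there were 2 (PTGS2 and PTGES, the call on PTGER2 being lost), beside 328 of 13546 genes. With no fold threshold there were 4 (PLA2G4A being added), beside 24% of all tested genes. The log2 fold change of PTGES ranged from 1.77 to 2.45, and DESeq2 gave no adjusted p for it. Of all 13546 tested genes, 874 (581 higher and 293 lower) changed in the reported fit and 567 with the DESeq2 Wald test. The number was 328 with the fold threshold at 2, and 3245 with no fold threshold. Loess offsets along the expression level, added after the data had been seen, gave 354 higher and 394 lower. Of the 56 tested genes in the other pathway lists, 8 were called as reported, 5 with DESeq2, 3 at 2-fold and 27 with no fold threshold. With the replicate number as a block 898 genes and the same 3 members were called, and the block ended none of the 8 calls in the other pathway lists. Deviations of same-numbered samples had a correlation of 0.048, and the file names number the Liq libraries differently. Whether same-numbered samples were handled together cannot be told from this value or from the labels. Leaving out a sample left 1 group with 1 sample, assumed to vary like the other. The cause of these shifts was not tested. Depth limits PTGES, HPGD, PTGIS, PTGER3 and ESR2, each with at most 31 reads in any sample.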
